A study of Rattus norvegicus with 12 samples.

Results

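Glutathione transferases, aldehyde dehydrogenases and the genes of the aryl hydrocarbon receptor (AHR) were followed in PAC1, a smooth muscle cell line that comes from the rat pulmonary artery. The cells had been depleted by siRNA of the RNA-binding protein RBPMS, RBFOX2 or QKI. The study describes these knockdowns as made in PAC1 cells cultured for a differentiated state. It found the cells less differentiated than those of its other RNA-seq experiment. The genes were taken by symbol. All Gsta, Gstk, Gstm, Gsto, Gstp, Gstt, Gstz and Mgst genes and all Aldh genes were included, together with Ahr, Ahrr, Tiparp, Cyp1a1, Cyp1b1, Ephx1 and Ephx2. This gave 53 of the 33294 genes in the count table, of which 26 were glutathione transferases and 20 aldehyde dehydrogenases.

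Poly(A) RNA was sequenced from 12 libraries in 4 groups of 3. All cells were grown with 10% foetal bovine serum and lipofected with 90 pmol of siRNA. By the sample labels the transfection was repeated after 24 h and cells were taken 48 h later. The methods of the study describe longer intervals, and the difference was not resolved. The control group received the negative control siRNA C2, and each knockdown (RBPMS-KD, RBFOX2-KD and QKI-KD) used 1 siRNA, so an effect of the protein and an effect of that siRNA sequence cannot be told apart. The methods of the study call the replicates of a condition biological, and p-values measure the spread between these samples. The sense strands of the siRNAs, the only agent by which the groups differ, were as follows.
C2 (control): aagguccggcucccccaaaug
RBPMS: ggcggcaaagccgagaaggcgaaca
RBFOX2: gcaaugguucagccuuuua
QK (QKI-KD): ggacuuacagcuaaacaac

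AHR is a transcription factor that binds planar aromatic ligands in the cytoplasm and moves to the nucleus. Paired there with ARNT, it activates genes whose promoters carry the xenobiotic response element. Cyp1a1 and Cyp1b1 encode cytochromes P450 that oxidise such ligands, while Ahrr and Tiparp encode feedback inhibitors of the receptor. The reactive epoxides, quinones and aldehydes that arise are cleared by epoxide hydrolases, by glutathione transferases, which join them to glutathione, and by aldehyde dehydrogenases, which oxidise them to acids. In vascular cells these enzymes are known for handling products of lipid peroxidation and for retinoic acid synthesis by the ALDH1A enzymes.

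RefSeq promoter windows of the assembly GRCr8, from 250 bases before to 50 after the start, were found for 40 of the 53 genes. The core of the xenobiotic response element, GCGTG, was searched on both strands and occurred in the windows of 16 of these 40 genes, or 40%, against 29.7% of all 33469 windows. The core of the antioxidant response element, TGACNNNGC, occurred in 11 of 40 genes, or 27.5%, against 12.1% of all windows. The motifs were counted separately and may overlap, and a gene with more than 1 window was counted once. Shown here are the windows of Ahrr and Tiparp, both higher in each knockdown, and of Cyp1b1, which was lower in QKI knockdown. Capitals mark GCGTG or its reverse complement CACGC. They start 142, 117 and 57 bases before the start of Ahrr, 136 bases before that of Tiparp, and 81 and 20 bases before that of Cyp1b1. The match is a description of the letters and not a measured binding site. Genes of at least 1 CPM that were changed in a knockdown, as defined below, did not all carry it. Aldh1a3 and Mgst3 had GCGTG in their windows, while Ephx1, Mgst1, Gsta1 and Aldh3b1 had none. Aldh7a1, Aldh9a1, Aldh3a2, Gstp1 and Gstm4 were unchanged in each knockdown and had it. A link between motif and response was not tested. No window was given for Cyp1a1, Aldh3a1 or Aldh1l2.
Ahrr, chr1:30821969-30822268, plus strand: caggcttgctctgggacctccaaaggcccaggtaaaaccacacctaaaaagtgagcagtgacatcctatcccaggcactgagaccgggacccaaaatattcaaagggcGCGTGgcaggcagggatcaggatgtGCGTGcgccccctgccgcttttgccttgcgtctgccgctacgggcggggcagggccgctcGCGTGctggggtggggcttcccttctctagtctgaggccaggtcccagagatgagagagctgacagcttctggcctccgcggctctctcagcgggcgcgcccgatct
Tiparp, chr2:152063519-152063818, plus strand: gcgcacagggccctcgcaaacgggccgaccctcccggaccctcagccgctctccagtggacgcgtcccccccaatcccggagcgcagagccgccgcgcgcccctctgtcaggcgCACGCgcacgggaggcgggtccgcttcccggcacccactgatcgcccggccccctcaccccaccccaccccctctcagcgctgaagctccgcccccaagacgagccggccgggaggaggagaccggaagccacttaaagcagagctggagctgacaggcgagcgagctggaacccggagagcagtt
Cyp1b1, chr6:21094315-21094614, plus strand: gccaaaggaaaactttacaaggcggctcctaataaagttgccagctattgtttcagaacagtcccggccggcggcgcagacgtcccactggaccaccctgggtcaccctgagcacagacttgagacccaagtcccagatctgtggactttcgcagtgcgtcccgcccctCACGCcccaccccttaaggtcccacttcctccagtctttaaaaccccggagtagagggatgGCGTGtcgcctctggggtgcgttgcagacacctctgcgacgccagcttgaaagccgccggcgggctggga

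Library totals ranged from 110.6 to 151.7 M counts. Levels are given as CPM, the count scaled to a common library total, which compares 1 gene between libraries and not 2 genes with each other, since gene length was not used. Each siRNA target was lower in its own knockdown, with log2 fold changes of −2.50 for Rbpms, −2.05 for Rbfox2 and −3.13 for Qk. Rbpms also fell by 0.81 in RBFOX2-KD and by 0.49 in QKI-KD, and Qk fell by 0.42 in RBFOX2-KD. The summed level of 6 smooth muscle markers (Acta2, Tagln, Myl9, Cnn1, Myh11 and Des) was 1971 to 2036 CPM in control, 937 to 1058 CPM in RBPMS knockdown, 668 to 771 CPM in RBFOX2 knockdown and 1329 to 1413 CPM in QKI knockdown. Acta2 and Myl9 carried the lower sums, together with Tagln in RBPMS-KD and RBFOX2-KD. Cnn1 was lower too, at a mean of 6.43 CPM in control and 2.59, 1.21 and 4.63 CPM in RBPMS-KD, RBFOX2-KD and QKI-KD. By contrast, the control means of Myh11 and Des were 6.48 and 9.90 CPM. In the same order of knockdowns, their means were 8.23, 13.4 and 7.38 CPM for Myh11 and 15.6, 11.2 and 19.5 CPM for Des. The 4 fibroblast markers, of which Col1a1 made up nearly the whole, summed to 7337 to 8472 CPM in control libraries, against 13943 to 17076 CPM across knockdown libraries. The 5 leukocyte markers summed to 1.44 to 1.62 CPM in control, 1.92 to 2.51 CPM in RBPMS-KD and RBFOX2-KD and 5.49 to 5.98 CPM in QKI-KD, where Csf1r averaged 3.63 CPM against 0.405 CPM in control, while Ptprc had at most 4 counts in any library. The 5 hepatocyte markers summed to 0.154 to 0.327 CPM in control and 1.06 to 1.27 CPM in QKI-KD, most of it Apoa1, with at most 2 counts for Alb in any library. Of the 5 epithelial markers, Krt8 averaged 30.6 CPM in control and 72.6 CPM in RBFOX2-KD, and the other 4 averaged at most 0.391 CPM in any group. The 5 endothelial markers summed to 8.73 to 10.8 CPM in control libraries, against 5.18 to 9.12 CPM across knockdown libraries. The part of these marker shifts in the values below was not tested. In bulk RNA, fewer cells with a transcript and less transcript per cell cannot be told apart. RBPMS-KD 2 stood apart from its replicates, with a chi-square per degree of freedom of 57.8 and 45.6 against 9.27 for the pair of RBPMS-KD 1 and 3. Its summed glutathione transferase level was 791 CPM, against 625 and 672 CPM in the other 2 libraries. Control 3, which enters every comparison with control, stood apart less strongly. Its chi-square per degree of freedom was 15.5 and 21.5, against 6.09 for the pair of control 1 and 2.

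Of the 53 genes, 48 passed the filter on low counts and were tested among 18438 genes. The remaining 5 (Aldh1b1, Aldh3b2, Gstm6, Gstm6l and Gstt4) had at most 6 counts in any library. A gene is said to rise or fall at an adjusted p under 0.05 in edgeR's quasi-likelihood test, and to be changed if its absolute log2 fold change was also above 1. In RBPMS knockdown 13 genes were changed, 9 higher and 4 lower, where 5.16% of all tested genes were changed upwards and 4.5% downwards. In RBFOX2 knockdown 8 were higher and 2 lower, against 6.96% and 4.73% of all genes. In QKI knockdown 13 were higher and 4 lower, against 8.28% and 9.24% of all genes. The 35 genes that averaged at least 1 CPM contributed 5 higher and 3 lower in RBPMS-KD, 3 and 2 in RBFOX2-KD and 8 and 3 in QKI-KD.

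At an adjusted p alone, 21 genes rose and 15 fell in RBPMS knockdown, where 30.4% of all genes rose and 29% fell. The counts were 20 and 9 in RBFOX2 knockdown, against 30.1% and 30.1% of all genes, and 25 and 14 in QKI knockdown, against 32.9% and 34%. The median log2 fold change of the 48 genes was 0.10, 0.073 and 0.18 in RBPMS, RBFOX2 and QKI knockdown, against 0.0085, 0.015 and 0.0068 over all genes. The median absolute log2 fold change was 0.54, 0.35 and 0.68, against 0.33, 0.33 and 0.42 over all genes. The 3 comparisons share the control libraries, so their values are given side by side and the knockdowns were also compared directly with each other.

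**Figure D1:**
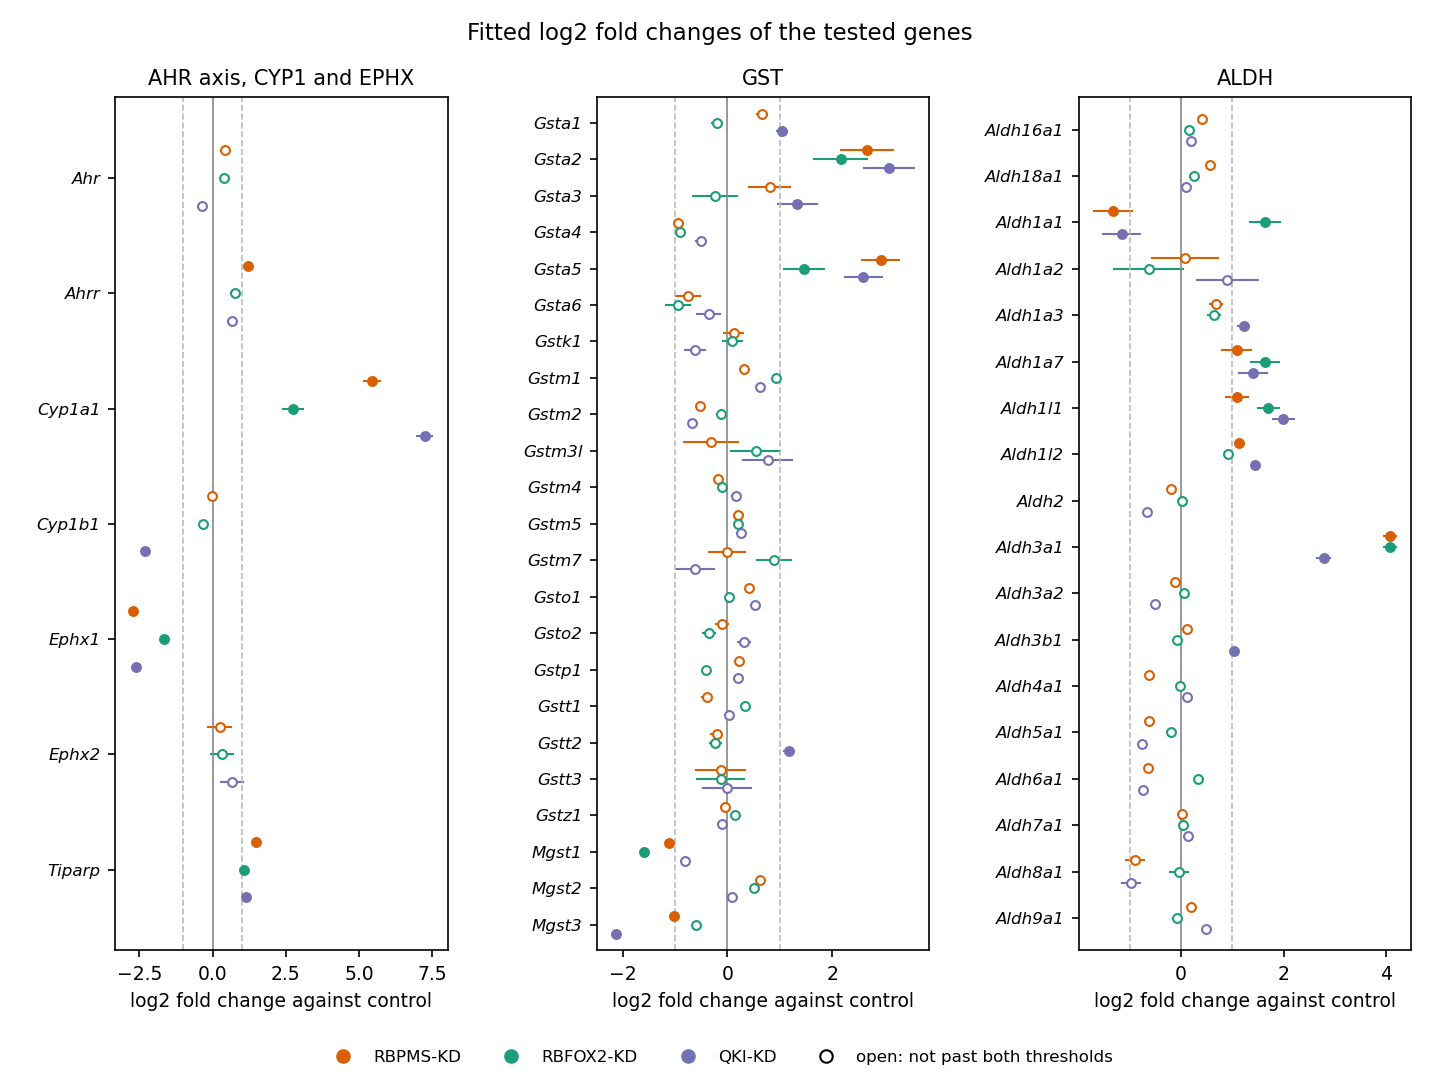
Log2 fold change (x axis) against control of the 48 tested genes in RBPMS-KD (orange), RBFOX2-KD (green) and QKI-KD (purple), with bars for 1 SE, grouped as AHR, CYP1 and epoxide hydrolase genes, glutathione transferases (GST) and aldehyde dehydrogenases (ALDH). Filled points passed both thresholds and dashed lines mark a log2 fold change of 1 in either direction. Cyp1a1 and Aldh3a1 lie farthest to the right of their panels, and Ephx1 lies to the left in each knockdown.

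The AHR genes were examined first. Ahr, the receptor itself, was at 61.3, 61.1 and 69.9 CPM in control 1, 2 and 3. It was at 87.9, 83.4 and 89.2 CPM in RBPMS-KD, 85.0, 85.5 and 84.8 CPM in RBFOX2-KD and 48.9, 48.3 and 54.2 CPM in QKI-KD. The receptor thus rose in RBPMS and RBFOX2 knockdown and fell in QKI knockdown, with no overlap of the libraries with control in any of them. The log2 fold changes were 0.44 (SE 0.052, adjusted p 1.43e-06), 0.41 (SE 0.052, 3.00e-06) and −0.34 (SE 0.053, 1.82e-05). Compared directly, Ahr in QKI knockdown was 0.78 and 0.75 below RBPMS and RBFOX2 knockdown on the log2 scale (adjusted p 9.12e-10 and 9.48e-10).

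The feedback inhibitors rose in each knockdown, whichever way the receptor went. Tiparp, which encodes an ADP-ribosyltransferase that represses AHR, was at 53.4, 55.6 and 44.7 CPM in control. Its level was 130, 147 and 153 CPM in RBPMS-KD, 101, 108 and 112 CPM in RBFOX2-KD and 110, 107 and 123 CPM in QKI-KD. All 9 knockdown libraries lay above all 3 control libraries. The log2 fold changes were 1.49 (SE 0.077, adjusted p 3.74e-11), 1.06 (SE 0.076, 2.07e-09) and 1.14 (SE 0.076, 4.60e-10), and that of Tiparp in RBFOX2 knockdown was 0.97 without control 3. Ahrr, the AHR repressor, was at 15.2, 17.0 and 9.32 CPM in control, 29.7, 30.9 and 35.2 CPM in RBPMS-KD, 22.6, 25.5 and 23.1 CPM in RBFOX2-KD and 21.6, 21.1 and 23.8 CPM in QKI-KD. Control 3 was the lowest library for both inhibitors. Ahrr rose by log2 fold changes of 1.21 (SE 0.14, adjusted p 9.81e-07), 0.78 (SE 0.14, 1.24e-04) and 0.68 (SE 0.14, 3.80e-04), which became 0.99, 0.56 and 0.46 without control 3. Both inhibitors were higher in RBPMS knockdown than in the other knockdowns, Tiparp by 0.43 and 0.34 (adjusted p 1.07e-04 and 7.39e-04) and Ahrr by 0.43 and 0.53 (0.0128 and 0.00309), against RBFOX2 and QKI knockdown respectively.

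Cyp1a1, the inducible P450 that serves as the common readout of AHR activity, was nearly absent from control at 30, 104 and 12 counts, or 0.245, 0.698 and 0.0881 CPM. It reached 12.5, 16.2 and 17.7 CPM in RBPMS-KD, 1.97, 2.69 and 2.56 CPM in RBFOX2-KD and 50.3, 50.2 and 61.3 CPM in QKI-KD. The 4 groups did not overlap, in the order control, RBFOX2, RBPMS and QKI knockdown. Direct comparison put QKI knockdown 1.80 (SE 0.17, adjusted p 6.98e-08) above RBPMS knockdown on the log2 scale, and RBPMS knockdown 2.69 (SE 0.20, 7.58e-09) above RBFOX2 knockdown. The spread among the control libraries limits the changes against control, which were 5.44 (SE 0.27, adjusted p 2.96e-11), 2.75 (SE 0.33, 1.53e-06) and 7.24 (SE 0.26, 1.40e-13) in RBPMS, RBFOX2 and QKI knockdown. Without control 2, the highest control library, the log2 fold changes of Cyp1a1 were 6.57, 3.88 and 8.36. Without control 3, the lowest, they were 4.98, 2.29 and 6.77.

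Cyp1b1, another P450 of this family, did not follow Cyp1a1. It was at 1771, 1889 and 1672 CPM in control, 1677, 1650.5 and 1914.5 CPM in RBPMS-KD, 1318.5, 1466 and 1457 CPM in RBFOX2-KD and 349, 366 and 374 CPM in QKI-KD. RBPMS knockdown overlapped with control, RBFOX2 knockdown lay below it and QKI knockdown lay far below all other libraries. The log2 fold changes were −0.02 (SE 0.057, adjusted p 0.738), −0.33 (SE 0.057, 8.49e-05) and −2.29 (SE 0.060, 2.02e-15), the last a 4.90-fold fall. In QKI knockdown, Cyp1b1 was also 2.27 and 1.96 lower on the log2 scale than in RBPMS and RBFOX2 knockdown (adjusted p 4.09e-15 and 1.40e-14). The group with the highest Cyp1a1 was therefore the one with the lowest Cyp1b1 and the lowest Ahr.

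**Figure D2:**
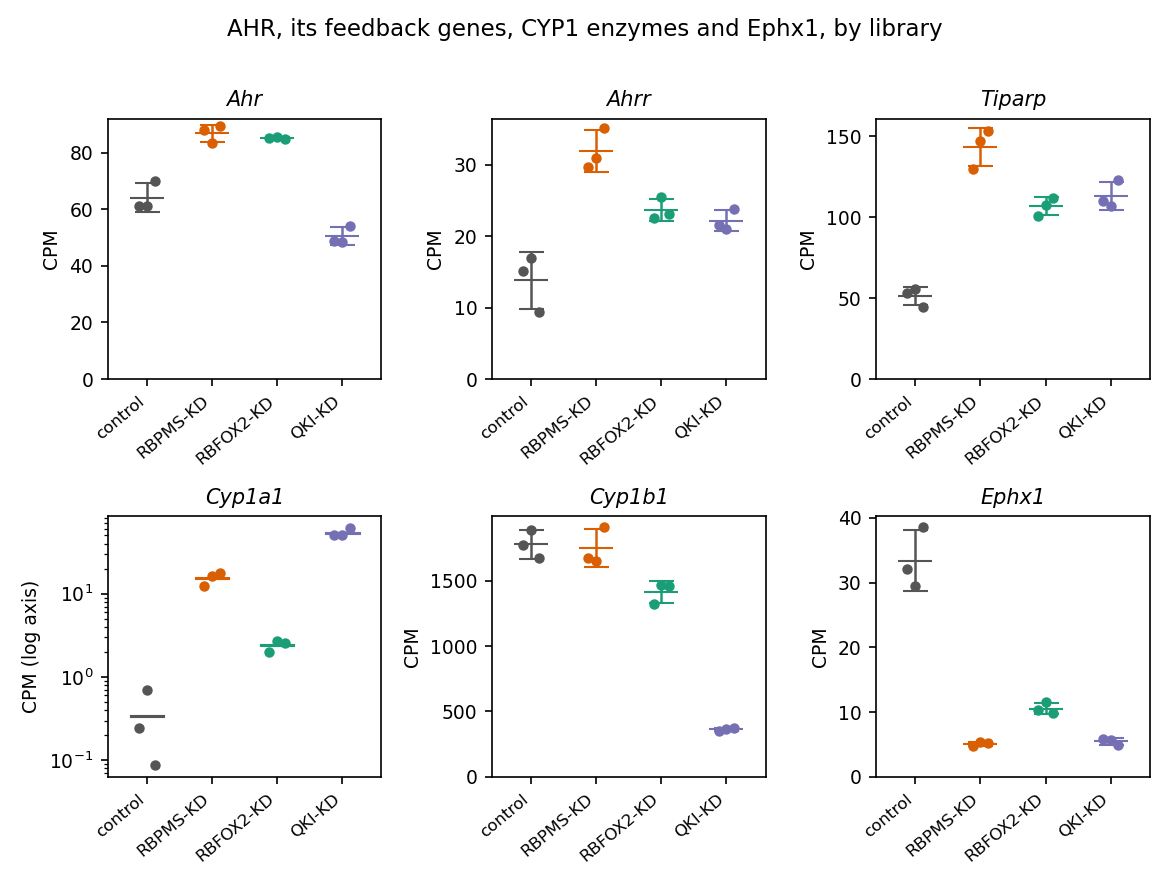
Level (CPM, y axis) of Ahr, Ahrr, Tiparp, Cyp1a1, Cyp1b1 and Ephx1 in the 12 libraries, by group. Points are libraries, wide ticks the group means and bars the SD of 3 libraries, except for Cyp1a1, which is on a log axis with means alone. Cyp1a1 is highest in QKI-KD at 50.2 to 61.3 CPM, where Cyp1b1 is lowest at 349 to 374 CPM.

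The epoxide hydrolases act next to the P450 enzymes. Ephx1, the microsomal enzyme that opens epoxides of aromatic compounds, was at 32.1, 29.5 and 38.6 CPM in control. It was at 4.77, 5.29 and 5.25 CPM in RBPMS-KD, 10.3, 11.5 and 9.90 CPM in RBFOX2-KD and 5.78, 5.71 and 4.90 CPM in QKI-KD, so that every knockdown library was below every control library. Ephx1 fell by 2.71 (SE 0.095, adjusted p 3.20e-13), 1.66 (SE 0.088, 4.04e-11) and 2.61 (SE 0.094, 1.21e-13) on the log2 scale. The fall in RBFOX2 knockdown was the smaller one in direct tests, by 1.05 against RBPMS knockdown and 0.95 against QKI knockdown (adjusted p 8.50e-08 and 1.05e-07), while RBPMS and QKI knockdown differed by −0.10 (SE 0.10, adjusted p 0.424). Ephx2, the soluble hydrolase of fatty acid epoxides, was between 0.091 and 0.339 CPM in all libraries, with log2 fold changes of 0.24, 0.34 and 0.65 and adjusted p of 0.616, 0.467 and 0.138.

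Genes that work with AHR or are commonly induced by it were read beside these. Among genes for the dimerisation partners and chaperones of AHR, Arnt2 was changed in RBFOX2 knockdown. Arnt2, a partner of AHR-related factors, had log2 fold changes of −0.71, −1.28 and −0.39 (adjusted p 1.51e-06, 9.84e-10 and 5.46e-04), whereas Arnt had 0.07, −0.16 and 0.26. The log2 fold changes of Hsp90aa1, Hsp90ab1 and Ptges3 were between −0.28 and 0.57. Among 5 further AHR-responsive genes, Nqo1, a quinone reductase that is also a target of NRF2, rose by 1.65 (SE 0.11), 1.04 (SE 0.10) and 1.01 (SE 0.10). It was at 414, 449 and 316 CPM in control 1, 2 and 3, with a mean of 393 CPM. Xdh rose by 0.77, 0.83 and 0.26. Cyp2s1 fell by 0.68 and 0.54 in RBPMS and RBFOX2 knockdown and had a log2 fold change of −0.23 in QKI knockdown (adjusted p 0.152). Ugt1a6, at 0.12 CPM in control, had log2 fold changes of 0.50, 1.30 and 1.05, of which the first did not pass the test. Cyp1a2 had too few counts to be tested.

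The largest rise among the aldehyde dehydrogenases was that of Aldh3a1 in each knockdown. Of 18 tested genes, 5 were changed in RBPMS knockdown (4 higher), 4 in RBFOX2 knockdown (all higher) and 7 in QKI knockdown (6 higher), where 5.16%, 6.96% and 8.28% of all tested genes were changed upwards and 4.5%, 4.73% and 9.24% downwards. Aldh3a1, an enzyme of medium-chain and aromatic aldehydes that responds to AHR ligands, was at 2.38, 2.54 and 2.06 CPM in control. Its level was 31.7, 45.2 and 40.3 CPM in RBPMS-KD, 37.0, 39.7 and 40.5 CPM in RBFOX2-KD and 15.1, 15.1 and 17.7 CPM in QKI-KD. Knockdown and control libraries were well separated, with QKI knockdown between control and the other 2 groups. The folds were 16.8, 16.8 and 6.86, or log2 fold changes of 4.07 (SE 0.12, adjusted p 4.36e-14), 4.07 (SE 0.12, 2.00e-14) and 2.78 (SE 0.12, 1.65e-12). Aldh3a1 was 1.29 higher on the log2 scale in RBPMS than in QKI knockdown (SE 0.10, adjusted p 5.09e-09) and likewise 1.29 higher in RBFOX2 than in QKI knockdown (SE 0.099, 3.29e-09). The order of the knockdowns for Aldh3a1 was thus not that for Cyp1a1.

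Aldh3a2, the fatty aldehyde dehydrogenase encoded close to Aldh3a1 in the GRCr8 annotation, moved little. Its mean was 72.6 ± 3.21 CPM (SD, n = 3) in control, and its log2 fold changes were −0.12 (adjusted p 0.00679), 0.05 (0.227) and −0.51 (8.26e-10). Aldh3b1, which acts on membrane-bound lipid aldehydes, was at 14.4, 14.6 and 15.0 CPM in control, 15.8, 16.7 and 15.4 CPM in RBPMS-KD, 13.5, 13.4 and 14.7 CPM in RBFOX2-KD and 29.9, 30.2 and 29.5 CPM in QKI-KD. QKI knockdown was apart from the other 9 libraries, at 1.03 (SE 0.048, adjusted p 3.25e-12) above control on the log2 scale, with differences of 0.90 and 1.11 from RBPMS and RBFOX2 knockdown (adjusted p 3.20e-11 and 1.38e-12). The log2 fold changes of Aldh3b1 in RBPMS and RBFOX2 knockdown were 0.12 and −0.08 (adjusted p 0.0354 and 0.178), and the first had an adjusted p of 0.0543 to 0.129 without control 1, control 2, RBPMS-KD 1 or RBPMS-KD 2.

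Aldh1l2 and Aldh1a3 belong to the ALDH1 family. Aldh1l2, the mitochondrial 10-formyltetrahydrofolate dehydrogenase of 1-carbon metabolism, was at 29.3, 27.4 and 24.4 CPM in control, 64.8, 57.1 and 56.5 CPM in RBPMS-KD, 50.9, 52.0 and 50.5 CPM in RBFOX2-KD and 73.9, 76.8 and 70.1 CPM in QKI-KD. All knockdown libraries exceeded all control libraries, with log2 fold changes of 1.14 (SE 0.062, adjusted p 7.53e-11), 0.92 (SE 0.062, 8.82e-10) and 1.45 (SE 0.062, 1.25e-12). Aldh1a3, a retinaldehyde dehydrogenase that makes retinoic acid, was at 1.32, 1.41 and 1.56 CPM in control, 2.18, 2.28 and 2.40 CPM in RBPMS-KD, 2.14, 2.52 and 2.03 CPM in RBFOX2-KD and 3.08, 3.74 and 3.20 CPM in QKI-KD. It rose by 0.67 (SE 0.12, adjusted p 9.47e-05), 0.64 (SE 0.12, 1.50e-04) and 1.22 (SE 0.12, 4.84e-08). Both genes were higher in QKI knockdown than in either other knockdown, Aldh1l2 by 0.31 and 0.53 (adjusted p 2.71e-04 and 5.61e-07) and Aldh1a3 by 0.54 and 0.58 (4.27e-04 and 1.64e-04).

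The ALDH1 genes under 1 CPM rest on few counts. Aldh1l1, the cytosolic form of the folate enzyme, had 36 to 43 counts per control library and 57 to 171 in the knockdowns, with log2 fold changes of 1.10, 1.70 and 1.99 (adjusted p 2.45e-04, 1.18e-06 and 1.08e-07). Aldh1a7 had 20 to 31 counts in control and 31 to 98 in the knockdowns, with log2 fold changes of 1.08, 1.64 and 1.40. Aldh1a1, which makes retinoic acid and clears lipid aldehydes, had 31, 19 and 36 counts in control, 6, 14 and 10 in RBPMS-KD, 105, 91 and 79 in RBFOX2-KD and 15, 13 and 8 in QKI-KD. The RBFOX2 knockdown libraries thus lay above control and the others below it, with log2 fold changes of −1.32 (SE 0.38, adjusted p 0.00582), 1.63 (SE 0.30, 1.29e-04) and −1.15 (SE 0.36, 0.00985). Directly compared, Aldh1a1 was 2.95 lower in RBPMS than in RBFOX2 knockdown (SE 0.34, adjusted p 1.21e-06) and 2.78 higher in RBFOX2 than in QKI knockdown (SE 0.33, 8.93e-07). Aldh1a2 had 2 to 18 counts and did not pass the test against control in any knockdown.

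The 9 genes of the other ALDH families were unchanged by the joint rule in each knockdown. Over all genes, 5.16%, 6.96% and 8.28% were changed upwards and 4.5%, 4.73% and 9.24% downwards in RBPMS, RBFOX2 and QKI knockdown. Aldh2, the mitochondrial enzyme that oxidises acetaldehyde and 4-hydroxynonenal, was at 208 CPM in each control library. Its log2 fold changes were −0.19 and −0.66 in RBPMS and QKI knockdown (adjusted p 2.38e-04 and 5.07e-11) and 0.01 in RBFOX2 knockdown (0.781). Aldh6a1, the methylmalonate semialdehyde dehydrogenase of valine breakdown, fell by 0.65 and 0.74 in RBPMS and QKI knockdown and rose by 0.34 in RBFOX2 knockdown. It was 0.99 lower in RBPMS than in RBFOX2 knockdown (adjusted p 1.81e-11) and 1.08 higher in RBFOX2 than in QKI knockdown (1.32e-12). Aldh9a1 rose by 0.20 and 0.50 in RBPMS and QKI knockdown from 243 ± 2.10 CPM (SD, n = 3), and Aldh18a1, which makes a precursor of proline, had log2 fold changes of 0.56, 0.24 and 0.10, the last with an adjusted p of 0.0235 that became 0.0565 to 0.127 without control 1, control 3, QKI-KD 1 or QKI-KD 2. Aldh16a1 rose by 0.41, 0.16 and 0.20. Aldh5a1 had log2 fold changes of −0.62, −0.20 and −0.75, those of Aldh8a1 were −0.90, −0.04 and −0.98, and those of Aldh4a1 were −0.62, −0.02 and 0.11. Aldh7a1, at 158 ± 2.90 CPM in control, had the narrowest span of the 9 genes, with log2 fold changes of 0.02, 0.03 and 0.15.

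**Figure D3:**
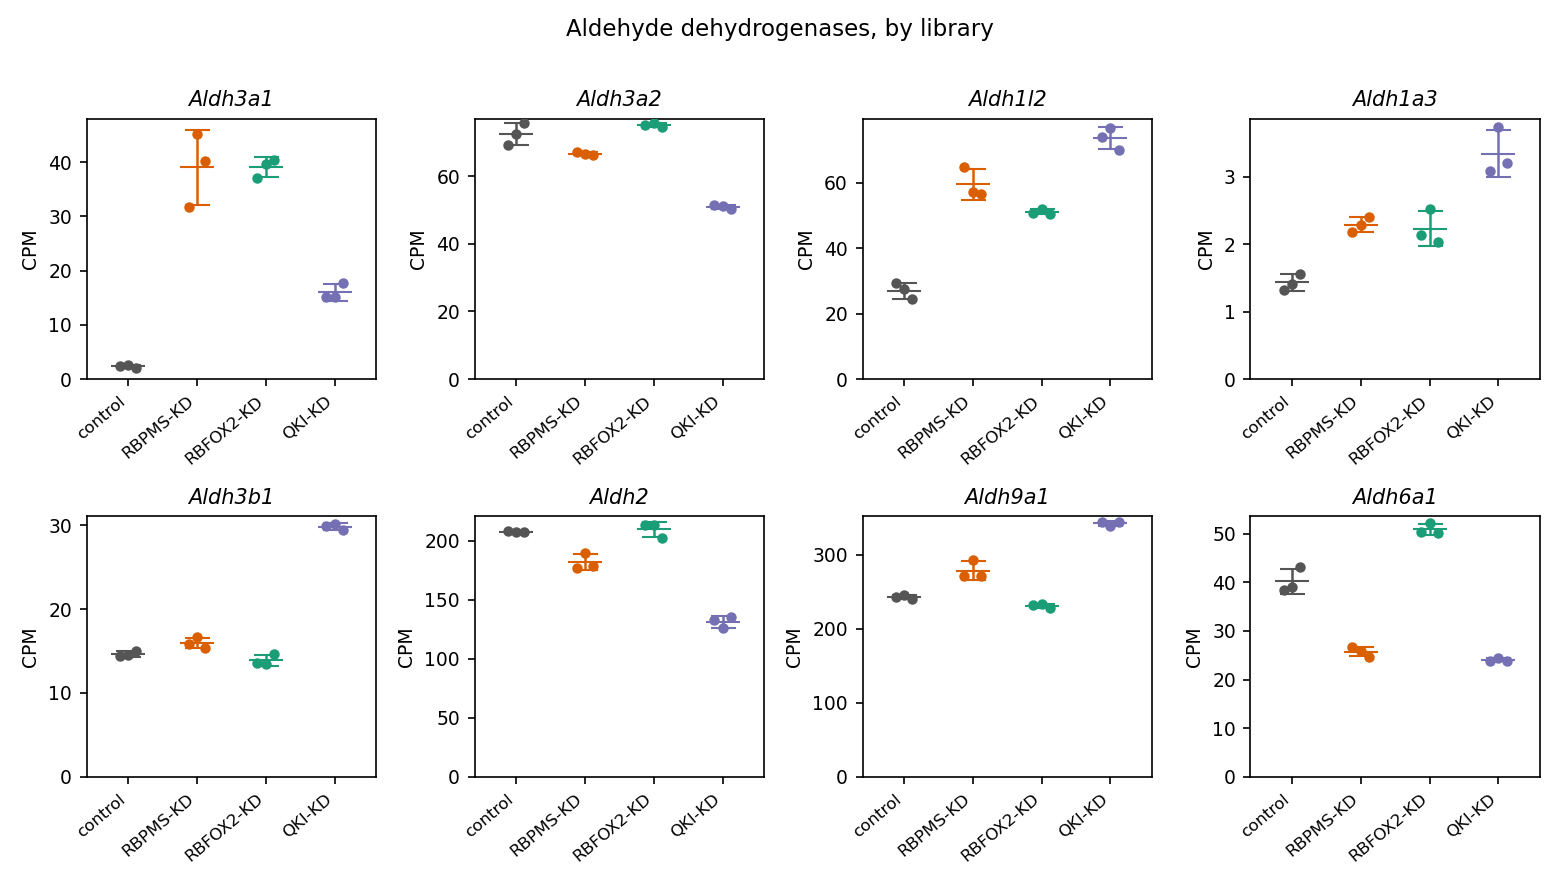
Level (CPM, y axis) of 8 aldehyde dehydrogenases in the 12 libraries, by group, with points for libraries, wide ticks for means and bars for the SD of 3 libraries. Aldh3a1 goes from 2.06 to 2.54 CPM in control to 15.1 to 45.2 CPM in the knockdowns, while its chromosomal neighbour Aldh3a2 stays between 50.3 and 75.8 CPM.

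Among the glutathione transferases, the microsomal enzymes Mgst1 and Mgst3 fell in each knockdown, and the alpha class genes Gsta2 and Gsta5 rose. Of 23 tested genes, 4 were changed in RBPMS knockdown (2 higher, 2 lower), 3 in RBFOX2 knockdown (2 higher, 1 lower) and 6 in QKI knockdown (5 higher, 1 lower), beside upward shares of 5.16%, 6.96% and 8.28% and downward shares of 4.5%, 4.73% and 9.24% among all tested genes. The summed level of the 26 genes was 633 ± 31.4 CPM (SD, n = 3) in control, 696 ± 85.4 CPM in RBPMS knockdown, 558 ± 9.48 CPM in RBFOX2 knockdown and 720 ± 26.0 CPM in QKI knockdown. The RBPMS knockdown and control libraries overlapped in this sum. A large part of the sum was Gstp1, which averaged 312 CPM over the 12 libraries.

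Mgst1, the membrane enzyme of the endoplasmic reticulum and outer mitochondrial membrane that also reduces lipid peroxides, was at 30.5, 30.3 and 30.2 CPM in control. It was at 11.8, 15.8 and 14.5 CPM in RBPMS-KD, 10.0, 10.5 and 9.70 CPM in RBFOX2-KD and 17.8, 17.7 and 16.3 CPM in QKI-KD. The groups were separated from control in each case, with RBFOX2 knockdown the lowest. Mgst1 fell by 1.11 (SE 0.075, adjusted p 1.17e-09), 1.59 (SE 0.076, 1.08e-11) and 0.81 (SE 0.074, 2.99e-08). In the direct tests it was 0.48 higher in RBPMS and 0.78 higher in QKI knockdown than in RBFOX2 knockdown (adjusted p 4.84e-05 and 8.88e-08).

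Mgst3, which has glutathione transferase and peroxidase activity, was at 10.1, 10.4 and 10.3 CPM in control, 4.44, 5.15 and 5.48 CPM in RBPMS-KD, 6.67, 6.97 and 6.70 CPM in RBFOX2-KD and 2.25, 2.42 and 2.39 CPM in QKI-KD. No 2 groups overlapped, and QKI knockdown was the lowest. The falls were 1.03 (SE 0.072, adjusted p 1.70e-09), 0.60 (SE 0.070, 9.74e-07) and 2.12 (SE 0.077, 1.28e-13), and that in QKI knockdown exceeded the others by 1.10 and 1.53 (adjusted p 2.35e-09 and 1.32e-11). Its neighbour on the chromosome, Aldh9a1, rose in the same knockdown. Mgst2, a relative with leukotriene C4 synthase activity, went the other way, with log2 fold changes of 0.62, 0.51 and 0.08 (adjusted p 1.11e-07, 1.22e-06 and 0.247) from 33.6 ± 1.52 CPM (SD, n = 3).

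In the alpha class, Gsta1 was at 36.9, 38.8 and 30.3 CPM in control, 47.2, 65.0 and 55.7 CPM in RBPMS-KD, 30.7, 31.8 and 30.0 CPM in RBFOX2-KD and 73.4, 66.6 and 77.8 CPM in QKI-KD. RBPMS and QKI knockdown lay above control and RBFOX2 knockdown overlapped with it. The log2 fold changes were 0.66 (SE 0.097, adjusted p 1.39e-05), −0.20 (SE 0.098, 0.0926) and 1.04 (SE 0.097, 4.17e-08), and that of Gsta1 in RBPMS knockdown was 0.54 without RBPMS-KD 2. Gsta1 was 0.86 higher in RBPMS than in RBFOX2 knockdown and 1.24 lower in RBFOX2 than in QKI knockdown (adjusted p 9.26e-07 and 4.56e-09). Gsta4, the form most active on 4-hydroxynonenal, fell instead, by 0.94, 0.90 and 0.51 (adjusted p 2.64e-08, 3.77e-08 and 2.18e-05) from 16.7 ± 1.47 CPM (SD, n = 3).

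Gsta2 and Gsta5 were higher in each knockdown at low counts. Gsta2 had 2 to 8 counts in control and 16 to 63 in the knockdowns, with log2 fold changes of 2.67, 2.17 and 3.09. Gsta5 had 8 to 22 counts in control and 42 to 151 in the knockdowns, with log2 fold changes of 2.93, 1.46 and 2.60. All 6 values passed the test, with adjusted p of at most 0.0033, but on the authors' normalised scale with a pseudocount of 10 they were 1.28, 0.90 and 1.55 for Gsta2 and 2.11, 0.84 and 1.76 for Gsta5. Gsta3, with 6 to 26 counts, was changed in QKI knockdown (1.34, adjusted p 0.00436) and had log2 fold changes of 0.81 and −0.24 in RBPMS and RBFOX2 knockdown. Gsta6 had log2 fold changes of −0.76, −0.94 and −0.36. The alpha class genes, Gsta1 and Gsta4 included, are paralogues in clusters on the chromosome. Their values are uncertain to the extent that the authors' counting split or dropped shared reads.

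None of the 6 tested genes of the mu class was changed against control. Over all genes, 5.16%, 6.96% and 8.28% were changed upwards and 4.5%, 4.73% and 9.24% downwards in RBPMS, RBFOX2 and QKI knockdown. Gstm1, at 28.6 ± 0.909 CPM (SD, n = 3) in control, rose by 0.32, 0.93 and 0.62 (adjusted p 1.25e-05, 1.79e-11 and 2.45e-09) and was 0.61 lower in RBPMS than in RBFOX2 knockdown (8.25e-09). Gstm2, its neighbour, had log2 fold changes of −0.52, −0.13 and −0.68 (adjusted p 2.70e-07, 0.0541 and 6.39e-09). Gstm4 had log2 fold changes of −0.18, −0.10 and 0.16 and Gstm5 of 0.20, 0.20 and 0.25, while Gstm7 and Gstm3l were at most at 0.522 CPM in any library. Gstm1, Gstm2 and Gstm4 are paralogues that lie together on the chromosome, so the uncertainty over shared reads applies to them too.

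In the remaining classes 1 of 8 tested genes was changed against control, in QKI knockdown, where 8.28% of all genes were changed upwards. Gstt2, a theta class enzyme, was at 2.91, 2.50 and 2.51 CPM in control, 2.03, 2.64 and 2.17 CPM in RBPMS-KD, 2.46, 2.08 and 2.21 CPM in RBFOX2-KD and 6.17, 5.82 and 5.92 CPM in QKI-KD. QKI knockdown was apart from the other 9 libraries, at 1.18 (SE 0.10, adjusted p 1.29e-08) above control on the log2 scale, with differences of 1.38 and 1.41 from RBPMS and RBFOX2 knockdown (adjusted p 3.27e-09 and 1.46e-09). The values of Gstt2 in RBPMS and RBFOX2 knockdown were −0.20 and −0.23 (adjusted p 0.113 and 0.0733). Gstt1, from the same cluster, had log2 fold changes of −0.40, 0.33 and 0.03, the last with an adjusted p of 0.724, and Gstt3 did not pass in any knockdown.

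Gstp1, the pi class enzyme, was at 314, 331 and 276 CPM in control, 314, 410 and 345 CPM in RBPMS-KD, 234, 233 and 228 CPM in RBFOX2-KD and 354, 333 and 377 CPM in QKI-KD. RBFOX2 knockdown lay below control, and Gstp1 fell there by 0.41 on the log2 scale (SE 0.078, adjusted p 2.30e-04). Gstp1 in RBPMS knockdown overlapped with control (0.22, adjusted p 0.0244) and had an adjusted p of 0.140 without control 3 and 0.148 without RBPMS-KD 2. Its value of 0.21 in QKI knockdown (adjusted p 0.0257) had an adjusted p of 0.0683 in DESeq2, and of 0.0524 to 0.149 without control 3, QKI-KD 1 or QKI-KD 3. The omega class enzyme Gsto1 rose by 0.42 and 0.53 in RBPMS and QKI knockdown and was at 0.03 in RBFOX2 knockdown (adjusted p 0.681). Gsto2 had log2 fold changes of −0.10, −0.35 and 0.32, Gstk1 of 0.12, 0.09 and −0.62 and Gstz1 of −0.05, 0.15 and −0.10. Gstz1 did not pass the test in any knockdown.

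**Figure D4:**
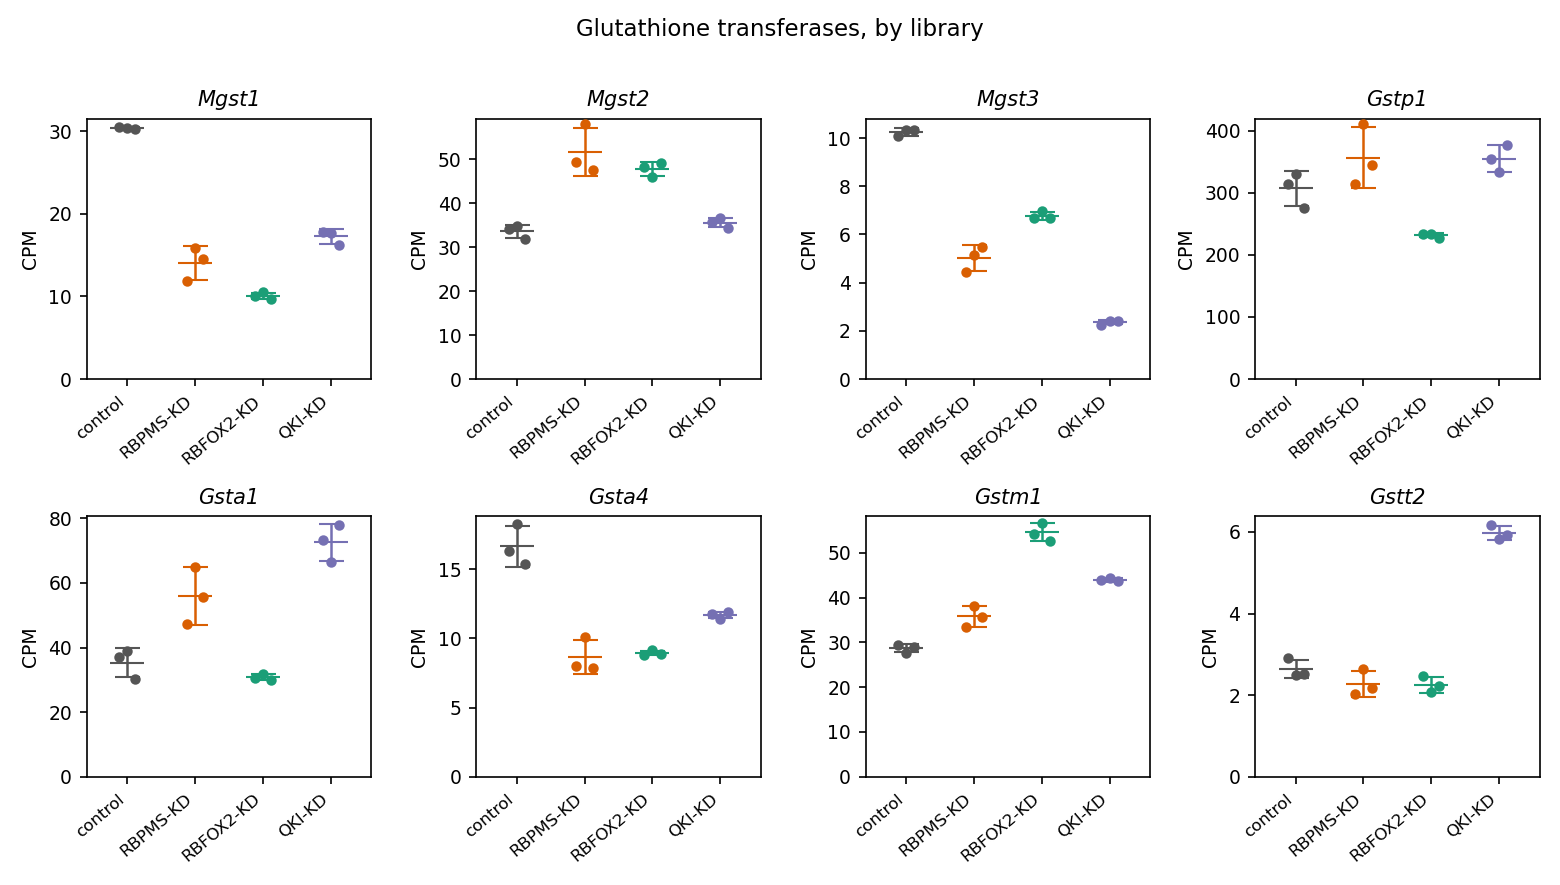
Level (CPM, y axis) of 8 glutathione transferases in the 12 libraries, by group, with points for libraries, wide ticks for means and bars for the SD of 3 libraries. Mgst1 and Mgst3 are below control in each knockdown, Gstt2 stands out in QKI-KD at 5.82 to 6.17 CPM, and RBPMS-KD 2 is the highest RBPMS-KD library for Gstp1 at 410 CPM.

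Genes of glutathione supply, export and breakdown were compared as a list of 14. Of these, 3 were changed in RBPMS-KD, 1 in RBFOX2-KD and 2 in QKI-KD, all higher, where 5.16%, 6.96% and 8.28% of all genes were changed upwards. The median log2 fold changes of the list were 0.15, −0.12 and 0.03, against 0.0085, 0.015 and 0.0068 over all genes. Chac1, which degrades glutathione, rose by 1.16 and 1.05 in RBPMS and QKI knockdown and had a log2 fold change of −0.22 in RBFOX2 knockdown (adjusted p 0.064). Its level was 34.4, 36.6 and 24.5 CPM in control 1, 2 and 3. Slc3a2, the heavy chain of the cystine transporter, rose by 1.14, 0.17 and 0.39, and Slc7a11, its light chain, rose by 0.85 in RBPMS knockdown, with values of 0.23 and −0.04 that did not pass in the others. Ggt1, which encodes an enzyme that breaks down glutathione outside the cell, rose by 1.51, 1.41 and 2.08 from 0.32 CPM in control. The enzymes of synthesis and reduction had log2 fold changes of −0.0018, −0.15 and 0.33 for Gclc, 0.12, −0.13 and 0.10 for Gclm, −0.04, −0.63 and −0.18 for Gss and 0.15, −0.26 and −0.15 for Gsr.

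The retinoid pathway, in which ALDH1A enzymes make the acid, was read from a list of 19 genes, of which 12 were tested. In RBPMS, RBFOX2 and QKI knockdown 2, 3 and 2 of them were changed, all higher, beside upward changes in 5.16%, 6.96% and 8.28% of all genes. Dhrs3, at only 0.18 CPM in control, was among the changed genes in each knockdown, with log2 fold changes of 1.07, 1.04 and 1.08. Cyp26b1, which degrades retinoic acid, rose by 1.24 and 1.61 in RBPMS and RBFOX2 knockdown and fell by 0.29 in QKI knockdown (adjusted p 9.76e-09, 2.33e-10 and 0.0226). Dhrs9, a retinol dehydrogenase, rose by 0.59, 1.31 and 2.34 from 1.49 CPM in control. Crabp2, which carries retinoic acid to its receptors, rose by 0.27 and 0.37 and fell by 0.89 in QKI knockdown. None of 7 genes for partners of P450 enzymes and other conjugation enzymes was changed by the joint rule in any knockdown. Downward changes over all genes, in the order above, were 4.5%, 4.73% and 9.24%, so few or no changes in so short a list are near these shares. Por, the electron donor of all microsomal P450 enzymes, had log2 fold changes of −0.04, −0.21 and 0.22.

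The knockdowns were last compared with each other over all 48 genes. Between RBPMS and RBFOX2 knockdown 5 genes were changed, where 7.52% of all tested genes were. Between RBPMS and QKI knockdown the number was also 5, against 12.2% of all genes. Between RBFOX2 and QKI knockdown 13 genes were changed, 6 higher and 7 lower in RBFOX2 knockdown, against 18.4% of all genes. The genes that differed in that pair and averaged at least 1 CPM were Cyp1a1, Cyp1b1, Aldh3a1, Aldh3b1, Aldh6a1, Gsta1, Gstt2 and Mgst3.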

How the data were processed

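Per the study's methods, the authors aligned reads with STAR (2.5.2a in the submitters' processing notes) to the rat assembly mRatBN7.2 and deposited raw counts per gene symbol. How shared or overlapping reads were counted, and whether strand was used, is not given in the sources used here. The authors also deposited a normalised signal, quantile-scaled after a noise filter, which served as an alternative only. Of count values from 1 to 19, 68.1% were even, against 50.9% of large values, so counts were also halved as an alternative.

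Genes were kept by filterByExpr, libraries scaled by TMM, and 18438 genes fitted over all 12 libraries with edgeR 4.0.16 in R 4.3.3 (glmQLFit, glmQLFTest, two-sided, Benjamini-Hochberg adjustment over all of them). The SE is the absolute log2 fold change over the square root of F. Totals were 110.6 to 151.7 M counts. They exceed the read depth that the methods of the study describe, so counts may not be single fragments and the precision they give is uncertain. An exact permutation test of 1 gene over groups of 3 has a smallest p of 0.1, so adjusted p rest on the model. In simulated counts for QKI knockdown against control (18438 genes), some genes of at least 1 CPM were changed by a log2 fold change of 1 or 2. Of these changed genes, 100% were recovered by adjusted p and direction, without the fold change threshold. Genes under 1 CPM were not among them, so their recovery is not known. Replicates were compared by chi-square and none was a duplicate within sampling noise.

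Values in every library are given for Ahr, Ahrr, Tiparp, the Cyp1 genes and Ephx1, and a range for Ephx2. Library values are also given for each other gene of at least 1 CPM changed in a knockdown. Levels of Gstp1 and counts of low genes were added after their values were seen. Members, lists and markers were chosen with earlier results of these data known. Sequences are from RefSeq (GRCr8) and the study's oligonucleotide list, and 51 of the 53 symbols matched the RefSeq gene table. Coordinates are those of GRCr8, not of the authors' build. Alternatives were other scalings, filters and tests, a replicate block and leaving out each library.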

Additional observations from a re-analysis of the deposited data

Results flagged for a closer look

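Listed here are the 23 differences between 2 knockdowns, in 14 genes, that passed an adjusted p under 0.05 with an absolute log2 fold change above 1 in the direct test by edgeR. Cyp1a1 differed in all 3 pairs, by 2.69 between RBPMS and RBFOX2 knockdown, −1.80 between RBPMS and QKI knockdown and −4.49 between RBFOX2 and QKI knockdown. Cyp1b1 was higher by 2.27 in RBPMS and 1.96 in RBFOX2 knockdown than in QKI knockdown, and Aldh3a1 by 1.29 and 1.29. Mgst3 was likewise higher than in QKI knockdown, by 1.10 in RBPMS and 1.53 in RBFOX2 knockdown. Gstt2 had differences of −1.38 and −1.41 from QKI knockdown.

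Ephx1 differed by −1.05 between RBPMS and RBFOX2 knockdown. Aldh1a1 differed by −2.95 in the same pair and by 2.78 between RBFOX2 and QKI knockdown, on 6 to 105 counts per library, and its changes against control had opposite signs. Gsta5 differed by 1.47 and −1.13 in these 2 pairs, and Gsta3, on 6 to 26 counts, by 1.04 and −1.57. Between RBFOX2 and QKI knockdown alone, the differences were −1.24 for Gsta1, −1.11 for Aldh3b1, 1.08 for Aldh6a1, 1.50 for Gstm7 and −1.53 for Aldh1a2, the last 2 of which were under 1 CPM.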

How the results depend on the processing

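Of 4802 tests of single genes under other settings, 4583 kept their side of the threshold, 157 lost and 62 gained significance. No test that passed in either setting was reversed, and direction was not compared where neither passed. With a filter on a mean of 200 counts, the numbers of changed genes were 8, 5 and 11 in RBPMS, RBFOX2 and QKI knockdown, 3 between RBPMS and RBFOX2 knockdown and 8 between RBFOX2 and QKI knockdown, since fewer genes were tested. With glmTreat, which tests against a log2 fold change of 1, they were 6, 5, 9, 2 and 7. In the pathway lists, whose totals were 6, 7 and 6, the filter gave 4 in RBFOX2 and 3 in QKI knockdown and glmTreat gave 1, 3 and 2. Leaving out 1 library gave 11 to 14, 10 to 12 and 15 to 19 changed genes in the 3 knockdowns, and 3 to 6 list genes in QKI knockdown, the lowest without control 3. Without RBPMS-KD 2 the number in RBPMS knockdown was 14. The replicate numbers did not pair the samples (correlations of same-numbered deviations from −0.165 to 0.140), and a replicate block gave 13, 10 and 17 changed genes, and 5, 5 and 13 between knockdowns. In the pathway lists the replicate block gave 6, 7 and 6. Depth limits the genes under 1 CPM, whose log2 fold changes rest on few counts.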
